A study of Mus musculus with 12 samples.

Results

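The upper-layer neuron transcription factors described here are 7 genes: the Cut-like homeobox genes Cux1 and Cux2, the class III POU homeobox genes Pou3f1, Pou3f2 and Pou3f3, the MADS-box gene Mef2c and the nuclear receptor gene Rorb. They were taken by name from a list of upper-layer genes, with no threshold on their values, and each symbol matched 1 of the 50600 Ensembl gene identifiers in the files. The samples are cerebral cortices of C57BL/6 mice, collected before birth at E11, E13 and E17 (embryonic days) and after it at P1 (postnatal day). The labels give no genotype or treatment other than the strain. Each age has 3 libraries, called A, B and C, and a library is 1 animal's cortex, with a different litter behind each library of the same age. The study's title concerns the uptake and storage of zinc, and the ages ask how cortical RNA changes as the cortex forms.

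Neurons of the cerebral cortex are born in sequence, deep layers before upper layers, from radial glia directly or through intermediate progenitors. Cux1 and Cux2 mark neurons of layers II to IV and shape their dendrites and synapses, and Pou3f2 (Brn2) and Pou3f3 (Brn1) act together in the production and migration of upper-layer neurons in the mouse. Pou3f1 (Oct6, SCIP) is also known from myelinating Schwann cells, Mef2c is an activity-regulated factor of neurons that is also used in muscle, blood vessels and microglia, and Rorb marks layer IV. Several of the 7 are also expressed in progenitors or outside the upper layers. In whole cortex, more cells of a type and more RNA per cell cannot be told apart.

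Libraries held 28173745 to 45858712 counts, and all 7 genes passed the filter on low counts, among 17847 genes tested. Levels below are CPM, counts per 1000000 counts of the library after TMM scaling, given as mean ± SD over 3 libraries. Summed over 12 pan-neuronal genes, such as Tubb3 and Dcx, the level was 1300 to 1470 CPM at E11, 2850 to 3490 at E13, 11300 to 11500 at E17 and 11800 to 12300 at P1. The sum over 12 radial glia genes was 3450 to 3610, 3430 to 3530, 2250 to 2530 and 1870 to 1970 CPM at the same ages. For cells from outside the cortical wall, the sum over 8 meningeal fibroblast genes was 1180 to 1430, 794 to 1090, 14.1 to 16.3 and 14.1 to 52.9 CPM, and over 10 red cell genes 5740 to 16500, 782 to 1760, 165 to 344 and 45.6 to 83.9 CPM. Marker sums of neighbouring tissue set some libraries apart. Over 10 genes of interneurons and ventral telencephalon the sum was 48 CPM in E11 C against 4.07 and 7.21 in the other E11 libraries, and 67.9 in E13 C against 22.6 and 30.8 in the other E13 libraries. At E17 it was 393 to 472 CPM and at P1 435 to 466. The sum over 7 choroid plexus genes was 43.4 CPM in E13 C against 355 and 399 in the other E13 libraries, 96.5 to 268 at E11, 1.03 to 9.24 at E17 and 1.83 to 2.53 at P1. Over 10 striatal projection neuron genes it was 266 CPM in E17 A against 182 and 190 in the other E17 libraries. It was 75.9 to 78.9 CPM at E11, 74.2 to 83.4 at E13 and 253 to 316 at P1, a range that includes the E17 A value. The meningeal fibroblast sum was 52.9 CPM in P1 A against 14.1 and 15.8 in the other P1 libraries. P1 A was left out only on its own, as each library was. With E11 C, E13 C and E17 A left out together, a choice made after seeing the data, as many of the 7 genes passed the threshold in each comparison as with all libraries, although at E13 against E11 Cux2 was gained and Pou3f2 lost. The part of these other cells in the results was not tested.

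Of the 7 genes, 6 rose between E13 and E17, and Cux1 was the exception. Mef2c rose 19.2-fold, Pou3f1 10.2-fold, Rorb 6.95-fold, Cux2 5.99-fold, Pou3f2 4.35-fold and Pou3f3 1.48-fold, while the fitted ratio for Cux1 was 0.958. Between E17 and P1 the genes parted: Mef2c and Pou3f1 rose further, Pou3f2 and Pou3f3 fell, and Cux1, Cux2 and Rorb did not pass the threshold. Counts of members follow, at an adjusted p under 0.05 in edgeR's quasi-likelihood test with Benjamini-Hochberg adjustment over all tested genes. At E13 against E11, 5 members were called, all higher, with 40.1% of all tested genes called and 22.6% called higher, and the libraries of both ages lay apart for the same 5, against 51.8% of all genes. At E17 against E13, 6 were called, all higher, where the background was 73.8% called, 36.8% higher and 37% lower. The libraries lay apart for those 6, as they did for 76.1% of all genes. Most genes moved across this interval, so a count of 6 among 7 is near the background. In size, the members' median log2 fold change was 2.58, against -0.04 over all tested genes. Such a median was not particular to the members. It was 2.24 for the pan-neuronal list, 3.27 for interneurons and ventral telencephalon and 2.37 for striatal projection neurons. For the deep-layer regulators it was 0.60 and for radial glia -1.89. At P1 against E17, 4 members were called, 2 higher and 2 lower, with 49.9% of all genes called, 24% higher and 25.9% lower, and the libraries lay apart for the same 4 and for 62.4% of all genes. At P1 against E11, all 7 were called, 6 higher and Cux1 lower, with 82.3% of all genes called, 40.5% higher and 41.8% lower, and the libraries lay apart for all 7 and for 84.5% of all genes. Over all 4 ages together, 6 members passed, all but Cux1 (adjusted p = 0.0603, and past the threshold with upper-quartile factors, with library size alone, with a replicate block, without E17 B and without E17 C), where 90.2% of all genes did. The scaling matters for this background: with library size alone the median log2 fold change of all genes was -0.22 at E17 against E13 and -0.26 at P1 against E11, and the rises among the genes called at E17 against E13 were 39.8%, against 49.8% with TMM.

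**Figure D1:**
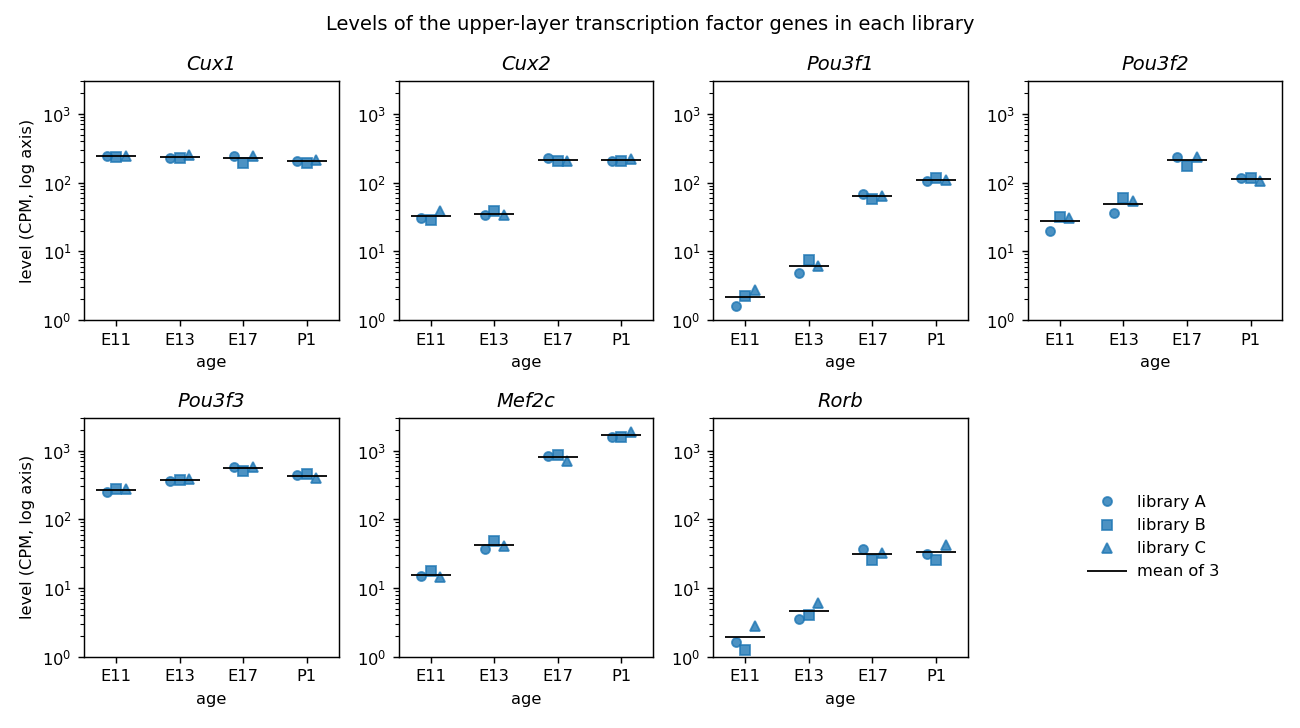
Level of each of the 7 genes in each of the 12 libraries (CPM on a log axis, age on the horizontal axis, 1 symbol per library letter, black lines at the mean of 3). Cux1 stays between 190 and 255 CPM at all ages, whereas the E17 libraries of the other 6 genes all lie above the E13 libraries.

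The Cux pair behaved differently from each other. Cux1 (ENSMUSG00000029705) measured 247, 237 and 242 CPM in the E11 libraries, 230, 227 and 255 at E13, 243, 191 and 247 at E17 and 209, 190 and 212 at P1. Levels overlapped at every step from one age to the next, and the log2 fold change was -0.03 ± 0.09 (SE) for E13 against E11, -0.06 ± 0.09 for E17 against E13 and -0.16 ± 0.09 for P1 against E17. With all libraries and TMM scaling Cux1 passed the threshold only over the whole span: it averaged 204 ± 11.7 CPM at P1 and 242 ± 5.12 CPM at E11, a log2 fold change of -0.25 ± 0.09 (edgeR adjusted p = 0.016) with all 3 P1 libraries below all 3 E11 libraries. That call was lost without P1 B, which had the lowest Cux1 level at P1 (-0.17, edgeR adjusted p = 0.125). Without E17 B, the lowest at E17, Cux1 was called lower at P1 than at E17 (-0.27, edgeR adjusted p = 0.00482). With library size alone Cux1 was also called lower at E17 than at E13 (-0.25, edgeR adjusted p = 0.0146), beside the all-gene median of -0.22 given above.

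Cux2 (ENSMUSG00000042589) was low at both early ages and high at both late ones. Its levels were 30.8, 28.7 and 39.1 CPM in the E11 libraries, 33.3, 38.9 and 33.8 at E13, 226, 203 and 206 at E17 and 206, 208 and 221 at P1. Early and late libraries were far apart, and within each pair of ages they overlapped. At E17 the mean was 212 ± 12.6 CPM, against 35.3 ± 3.1 CPM at E13, a log2 fold change of 2.58 ± 0.10 (edgeR adjusted p = 1.24e-10). At P1 against E17 the log2 fold change was -0.00096 ± 0.09 (edgeR adjusted p = 0.995). Between E11 and E13 the call depended on the E11 library with the raised ventral markers: the log2 fold change was 0.10 ± 0.10 (edgeR adjusted p = 0.444) with all libraries and 0.24 (edgeR adjusted p = 0.0323) without E11 C. Set per kilobase of exon so that the genes can be compared, Cux2 stood at 0.241 to 0.32 of the Cux1 level in the E11 libraries and 0.263 to 0.34 at E13. At E17 Cux2 was the higher of the pair by this measure, at 1.65 to 2.11 times Cux1, and at P1 the ratio was 1.96 to 2.16. These ratios depend on the length used. In CPM the E17 libraries of the pair overlapped, with means of 212 for Cux2 and 227 for Cux1. With the longest transcript as length, the E17 means were 24.1 CPM per kilobase for Cux2 and 17.7 for Cux1.

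The class III POU genes encode closely related factors from genes without introns. The 250 bases before the annotated start of Pou3f2 and of Pou3f3 are shown because these 2 genes moved alike, up to E17 and down at P1. The RefSeq sequences, on GRCm38.p6, are chr4:22488367-22488616 on the minus strand for Pou3f2 and chr1:42695518-42695767 on the plus strand for Pou3f3, printed 5′ to 3′ in the direction of the gene with CCAAT boxes (CCAAT) and GC boxes (GGGCGG) of either strand in capitals.
Pou3f2: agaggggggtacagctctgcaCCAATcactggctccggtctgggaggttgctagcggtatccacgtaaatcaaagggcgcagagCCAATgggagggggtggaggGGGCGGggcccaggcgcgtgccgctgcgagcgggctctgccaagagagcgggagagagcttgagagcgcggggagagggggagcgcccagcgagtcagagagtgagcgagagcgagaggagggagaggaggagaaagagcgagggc
Pou3f3: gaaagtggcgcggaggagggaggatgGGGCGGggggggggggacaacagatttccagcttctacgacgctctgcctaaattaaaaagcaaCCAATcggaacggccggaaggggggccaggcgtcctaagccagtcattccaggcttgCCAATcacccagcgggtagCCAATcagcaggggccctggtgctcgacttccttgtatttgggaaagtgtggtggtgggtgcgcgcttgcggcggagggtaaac
Pou3f2 holds 2 CCAAT boxes, beginning 229 and 166 bases before the start, and 1 GC box. Pou3f3 holds 3 CCAAT boxes, beginning 160, 103 and 84 bases before the start, and 1 GC box. Of 32851 RefSeq promoter windows of this length, 33.8% hold a CCAAT box and 32.7% a GC box, so neither is rare. The POU octamer ATGCAAAT, which 1.6% of the windows hold, was not found in either, on either strand. These matches describe the letters only. RefSeq windows were at hand for 6 of the 7 genes, not for Pou3f1.

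Pou3f1 (ENSMUSG00000090125) rose at every step. It measured 1.62, 2.24 and 2.71 CPM at E11, from 55 to 85 counts per library, then 4.89, 7.5 and 6.17 CPM at E13, 67.5, 58.6 and 63.4 at E17 and 106, 116 and 109 at P1. No 2 ages overlapped. The log2 fold change was 1.5 ± 0.18 at E13 against E11 (edgeR adjusted p = 3.73e-05), 3.35 ± 0.14 at E17 against E13 (3.81e-10) and 0.80 ± 0.12 at P1 against E17 (0.000185). Over the whole span the level was 110 ± 5.29 CPM at P1 and 2.19 ± 0.543 CPM at E11, a fitted 50.5-fold rise. An antisense gene that overlaps Pou3f1 in the annotation, Gm2164, had 593 counts over all libraries against 20036 for Pou3f1, with at most 1, 7, 79 and 132 counts per library at E11, E13, E17 and P1.

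Pou3f2 (ENSMUSG00000095139) and Pou3f3 (ENSMUSG00000045515) peaked at E17. Pou3f2 measured 19.6, 32.1 and 30.2 CPM at E11, 35.6, 59.9 and 53.4 at E13, 238, 176 and 232 at E17 and 116, 116 and 106 at P1. All E17 libraries were above all others. Its mean was 216 ± 34.1 CPM at E17 and 49.6 ± 12.6 CPM at E13, a log2 fold change of 2.12 ± 0.22 (edgeR adjusted p = 5.81e-06), and then 113 ± 5.67 CPM at P1, lower than at E17 by a log2 fold change of -0.93 ± 0.21 (edgeR adjusted p = 0.00388). The earlier rise at E13 against E11 was 0.86 ± 0.22 (edgeR adjusted p = 0.0106), and its adjusted p was 0.054 without E13 B and 0.0706 with the 3 libraries named above left out. Pou3f3 started from a much higher level: 251, 278 and 274 CPM at E11, 359, 373 and 390 at E13, 580, 502 and 576 at E17 and 437, 457 and 393 at P1. No 2 neighbouring ages overlapped. Its log2 fold changes were 0.48 ± 0.07 at E13 against E11 (edgeR adjusted p = 0.000194), 0.56 ± 0.07 at E17 against E13 (1e-05) and -0.37 ± 0.07 at P1 against E17 (0.00108).

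The make-up of the POU class III family shifted with age. Per kilobase of exon, the 4 genes Pou3f1 to Pou3f4 summed to 46 ± 4.36 CPM at E11, 64.2 ± 4.43 at E13, 135 ± 14.8 at E17 and 109 ± 6.22 at P1. Pou3f3 supplied 78.7% of that sum at E11, 78.8% at E13, 55.6% at E17 and 53% at P1, and was the most abundant member at each age. The share of Pou3f1 was 1.23%, 2.49%, 12.2% and 26.3% at the same ages, and that of Pou3f2 10.5%, 13.7%, 28.6% and 18.5%. Pou3f1 stood below Pou3f2 in every library up to E17, at 0.396 to 0.483 of its level at that age, and above it in all 3 P1 libraries, at 1.32 to 1.49 times its level. The remaining paralog, Pou3f4 (Brn4), fell to 6.86 ± 1.58 CPM at P1, against 14.5 ± 5.54 CPM at E17 (log2 fold change -1.08, edgeR adjusted p = 0.0129). Beside Pou3f3 on the opposite strand lie the long noncoding transcripts Pantr1, 926 bases away, and Pantr2, 3885 bases away. Pantr1 averaged 52.4, 87.8, 105 and 93.8 CPM over the 4 ages and rose by 0.75 ± 0.11 at E13 against E11 and by 0.26 ± 0.11 at E17 against E13 on the log2 scale (edgeR adjusted p = 0.000267 and 0.0492). Pantr2 averaged 6.44, 13.7, 4.44 and 4.27 CPM and fell at E17 against E13 by 1.63 on the log2 scale (edgeR adjusted p = 1.98e-06), where Pou3f3 rose.

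**Figure D2:**
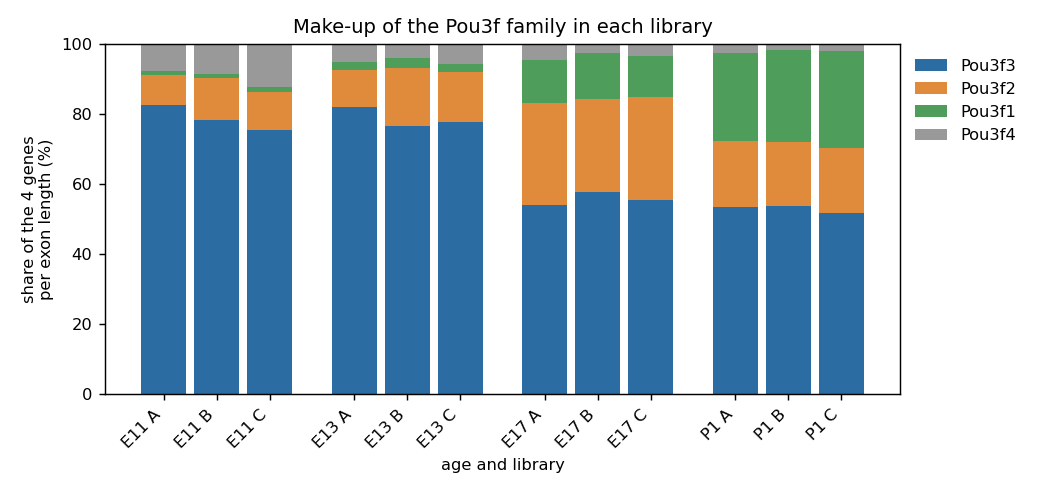
Share of each of the 4 class III POU genes in their summed level per exon length (percent, stacked bars, 1 bar per library, ages from left to right). Pou3f3 is the largest block in every bar, and the Pou3f1 block is 1.03 to 1.44% of the bar at E11 and 24.9 to 27.7% at P1.

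Mef2c (ENSMUSG00000005583) had the largest change of the 7 genes. It measured 15, 17.6 and 14.5 CPM in the E11 libraries, 36.4, 49.1 and 40.4 at E13, 846, 857 and 711 at E17 and 1560, 1590 and 1850 at P1. No 2 ages overlapped. The log2 fold change was 1.42 ± 0.12 at E13 against E11 (edgeR adjusted p = 2.82e-06), 4.26 ± 0.13 at E17 against E13 (2.89e-11) and 1.05 ± 0.12 at P1 against E17 (1.62e-05). Over the whole span the mean was 1660 ± 159 CPM at P1 and 15.7 ± 1.67 CPM at E11, a fitted 106-fold rise, which ranked 242 among the rises of the 17847 tested genes. By level per kilobase of exon Mef2c ranked 12480 of 17794 genes at E11, 10324 at E13, 895 at E17 and 328 at P1. Because Mef2c is also used in muscle, vessels and microglia, their markers are given beside it: at E11, E13, E17 and P1 the 9 muscle genes summed to 3.04 to 3.92, 1.29 to 1.72, 2.2 to 3.15 and 5.73 to 8.9 CPM, with Myod1 and Myog at 0 in all E11 libraries and Myog at 0 in all E13 libraries. The 10 endothelial genes summed to 314 to 389, 266 to 342, 203 to 246 and 178 to 220 CPM, and the 10 microglia genes to 60.6 to 70.9, 44.1 to 68.7, 57 to 82.7 and 77.6 to 92.5 CPM. Marker sums of 2 other neuron types rose between E13 and E17, as Mef2c did. For interneurons and ventral telencephalon the sum was 22.6 to 67.9 CPM at E13 and 393 to 472 at E17. For striatal projection neurons it was 74.2 to 83.4 CPM at E13 and 182 to 266 at E17. The part of any of these cells in the Mef2c levels was not tested.

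Of the other MEF2 family genes, Mef2a and Mef2d also rose at E17. Mef2a averaged 42.3 ± 1.5, 46.9 ± 3.12, 97.2 ± 4.02 and 120 ± 6.06 CPM over the 4 ages, and its log2 fold change at E17 against E13 was 1.05 ± 0.06. Mef2d averaged 54.2 ± 3.01, 67.5 ± 2.44, 119 ± 5.98 and 168 ± 7.16 CPM, with a log2 fold change of 0.82 ± 0.06 over the same step. Both passed the threshold there (edgeR adjusted p = 2.35e-09 for Mef2a and 2.07e-08 for Mef2d). Mef2b was low, with 133 counts over all 12 libraries, and rose to 0.506 ± 0.0981 CPM at P1, against 0.108 ± 0.0325 CPM at E17 (log2 fold change 2.13, edgeR adjusted p = 0.00651). Per kilobase of exon, Mef2c stood at 0.308 to 0.402 of the Mef2a level at E11 and 0.761 to 0.909 at E13, and at 7.16 to 8.05 times it at E17 and 12.6 to 13.7 times it at P1. The noncoding transcript C130071C03Rik, 54301 bases from Mef2c in the annotation, averaged 331, 379, 354 and 301 CPM and did not follow Mef2c: at E17 against E13 its log2 fold change was -0.10 ± 0.07 (edgeR adjusted p = 0.202).

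Rorb (ENSMUSG00000036192) was the least abundant of the 7 per exon length at each age. It measured 1.65, 1.27 and 2.83 CPM at E11, from 43 to 89 counts per library, then 3.54, 4.07 and 6.08 CPM at E13, 36.7, 25.6 and 32.4 at E17 and 31.4, 26 and 41.6 at P1. Its E17 and P1 libraries overlapped and lay above all earlier ones. Rorb rose at E13 against E11 by a log2 fold change of 1.25 ± 0.32 (edgeR adjusted p = 0.0101) and at E17 against E13 by 2.80 ± 0.28 (2.55e-06), and at P1 against E17 the change was 0.06 ± 0.25 (0.852). Its close relative Rora fell to 5.29 ± 0.652 CPM at E13, against 10.5 ± 1.28 CPM at E11 (log2 fold change -0.99, edgeR adjusted p = 7.06e-05), and averaged 6.47 ± 0.12 CPM at E17. At P1 Rora rose to 15.2 ± 2.28 CPM, a log2 fold change of 1.23 against E17 (edgeR adjusted p = 9.25e-06), in the interval in which Rorb did not pass the threshold. Rorb was accordingly 0.16 to 0.281 of Rora per exon length in the E11 libraries and 0.716 to 1.31 of it at E13. The ratio was 4.71 to 6.77 at E17 and 2.26 to 2.75 at P1.

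Both Mef2c and Rorb rose strongly up to E17, while the letters before the first annotated start of each are unlike. For that reason these start regions are set beside each other. They are the first RefSeq windows of each gene on GRCm38.p6, chr13:83503784-83504033 on the plus strand for Mef2c and chr19:19111197-19111446 on the minus strand for Rorb. Capitals mark CCAAT boxes, GC boxes and TATA boxes (TATAAA) of either strand.
Mef2c: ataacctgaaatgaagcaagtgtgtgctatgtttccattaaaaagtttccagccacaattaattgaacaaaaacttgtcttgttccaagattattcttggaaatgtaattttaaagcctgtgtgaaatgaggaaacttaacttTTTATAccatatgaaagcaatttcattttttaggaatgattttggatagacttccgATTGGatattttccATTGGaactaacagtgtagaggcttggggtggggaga
Rorb: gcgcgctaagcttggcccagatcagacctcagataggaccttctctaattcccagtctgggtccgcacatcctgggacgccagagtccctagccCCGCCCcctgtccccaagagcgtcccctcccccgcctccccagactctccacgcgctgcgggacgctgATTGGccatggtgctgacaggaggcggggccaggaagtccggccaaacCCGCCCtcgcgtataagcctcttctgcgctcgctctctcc
The Mef2c window has 33.6% G and C with 1 CpG, and it holds 1 TATA box and 2 CCAAT boxes. The TATA box letters are on the strand opposite to the gene and begin 107 bases before the start. Here too the matches describe the letters only. In the Rorb window 66% of the bases are G or C, with 18 CpG, and it holds 1 CCAAT box and 2 GC boxes. The median over all promoter windows was 52.4% G and C with 6 CpG, and 12.4% of windows held a TATA box. Among the members the widest contrast to Mef2c was the first window of Cux2, with 80% G and C and 40 CpG. In none of the 10 windows of the 6 genes was there a match to the POU octamer or to the MEF2 element, which 0.508% of all windows hold. The half-site AGGTCA, which nuclear receptors of the ROR family recognise, was present in 2 of the Mef2c windows and in 14% of all windows. Mef2c and Rorb each have more than 1 annotated start, and the counts per gene do not say which was used. The contrast in base composition is between the first windows only. The other Mef2c windows had 44.8% and 49.6% G and C, with 6 and 4 CpG. The other Rorb window had 39.2% G and C with 4 CpG and no GC box.

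Whether the last 2 steps differed was tested directly, as the log2 change from E17 to P1 minus that from E13 to E17. The ages are not evenly spaced, so this compares the total change of each step and not a rate per day. It was -3.21 ± 0.19 for Mef2c, -3.05 ± 0.35 for Pou3f2, -2.73 ± 0.43 for Rorb, -2.58 ± 0.16 for Cux2, -2.55 ± 0.22 for Pou3f1 and -0.93 ± 0.13 for Pou3f3. All 6 passed the threshold in edgeR's quasi-likelihood test, with adjusted p between 6.44e-08 and 0.000244. For Cux1 the difference was -0.09 ± 0.15 (edgeR adjusted p = 0.612). Over all tested genes 55.4% were called in this test and 30.9% were called lower. The split of these calls depended on scaling: 44.3% of them were higher with TMM and 55.9% with library size alone, while the same 6 of the 7 genes were called lower with both. A lower second step was not particular to the members, whose median difference was -2.58. Medians were -1.98 for the pan-neuronal list, -3.33 for interneurons and ventral telencephalon and -2.71 for striatal projection neurons. They were -1.65 for the other upper-layer genes, -1.16 for the deep-layer regulators and 1.2 for radial glia.

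**Figure D3:**
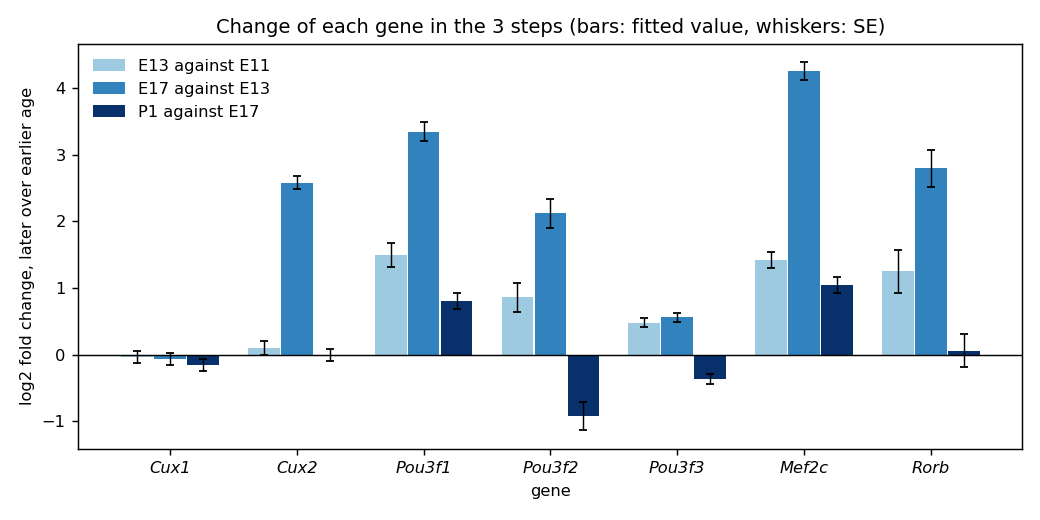
Fitted log2 fold change of each of the 7 genes in the 3 steps from one age to the next (later over earlier age, bars with whiskers of 1 standard error). The middle bar, E17 against E13, is the tallest for 6 genes, from 0.56 for Pou3f3 to 4.26 for Mef2c, and the P1 bar points down for Pou3f2 and Pou3f3. The steps span unequal times, and the bars are not changes per day.

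The order of the 7 genes by level changed with age. Per kilobase of exon, and in the order of their means, E11 ran from Pou3f3 at 36.1 CPM and Cux1 at 12.1 through Pou3f2 at 4.89, Cux2 at 3.26 and Mef2c at 0.997 to Pou3f1 at 0.569 and Rorb at 0.173. At E13 the order was the same, from 50.5 CPM per kilobase for Pou3f3 to 0.412 for Rorb. At E17 it was Pou3f3 at 74.6, Mef2c at 51.2, Pou3f2 at 38.6, Cux2 at 21, Pou3f1 at 16.4, Cux1 at 11.3 and Rorb at 2.85. At P1 Mef2c led with 106, followed by Pou3f3 at 57.9, Pou3f1 at 28.7, Cux2 at 21, Pou3f2 at 20.2, Cux1 at 10.2 and Rorb at 2.98. Neighbours in these orders did not overlap in their libraries, except Pou3f2 and Cux2 at E11 and Cux2 and Pou3f2 at P1. Cux1 thus ranked just below Pou3f3 at E11 and E13 and sixth of the 7 at P1, with little change in its own level. The lengths are all exons of a gene joined; with the longest transcript instead, Mef2c stood above Pou3f3 at E17 and above Cux2 at E13, and Cux1 above Pou3f1 at E17, while the order at P1 was the same. With that length the Mef2c level was 128 CPM per kilobase at E17 and 265 at P1, so its per-length values, ranks and ratios to other genes depend on the length used.

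Pan-neuronal genes rose over these ages, and each gene was also set against the mean log2 CPM of the 12 pan-neuronal genes, as a description without a test. All 12 were called higher at E13 against E11 and at E17 against E13. Relative to them Mef2c averaged -1.27 at E11, -1.35 at E13, 0.68 at E17 and 1.51 at P1 on the log2 scale, so Mef2c outpaced the list from E13 onward. Pou3f1 averaged -4.10, -4.12, -2.99 and -2.40 and outpaced it as well. Rorb averaged -4.34, -4.57, -4.00 and -4.16. Cux2 averaged -0.22, -1.60, -1.24 and -1.46, highest at E11. Pou3f2 averaged -0.50, -1.14, -1.23 and -2.36, with overlapping E13 and E17 libraries. Pou3f3 and Cux1 stood lower against the list at each later age: Pou3f3 averaged 2.82, 1.81, 0.14 and -0.44, and Cux1 averaged 2.68, 1.15, -1.15 and -1.51. Set against the mean of 12 radial glia genes instead, all 7 stood higher at P1 than at E11, Cux1 included, with 1.84 at P1 and 0.35 at E11. The radial glia list itself fell over that span, with a median log2 fold change of -2.66. Of its 12 genes 9 were called lower and 3 higher, where 41.8% of all tested genes were called lower. A gene of steady level therefore stands higher against it at P1.

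Other genes known from upper-layer neurons were described from a list of 19. At E13 against E11, 10 were called higher and 1 lower (median log2 fold change 0.79), at E17 against E13 14 higher and 4 lower (1.87), and at P1 against E17 7 higher and 3 lower (0.02). Over all tested genes, 40.1%, 73.8% and 49.9% were called in these steps and 22.6%, 36.8% and 24% were called higher, so 18 of 19 called at E17 stands beside a high background. The medians of the 7 factors in these steps were 0.86, 2.58 and -0.0, and those of all tested genes 0.0, -0.04 and -0.0. Those of the pan-neuronal list were 1.33, 2.24 and 0.23. At E13 the largest rises were of Unc5d, a netrin receptor of migrating upper-layer neurons, at 37.9 ± 14.9 CPM at E13 and 3.54 ± 1.31 CPM at E11, and of the cadherin gene Cdh13, at 38.7 ± 6.78 CPM at E13 and 3.70 ± 0.738 CPM at E11. At E17 the largest were of Rasgrf2, a Ras exchange factor, at 25.1 ± 11.8 CPM at E17 and 0.263 ± 0.211 CPM at E13, and of Inhba, an activin subunit, at 9.61 ± 1.5 CPM at E17 and 0.211 ± 0.0679 CPM at E13. These 4 rises passed the threshold, with edgeR adjusted p of 3.15e-05 for Unc5d, 1.21e-07 for Cdh13, 4.19e-07 for Rasgrf2 and 2.33e-09 for Inhba. Not every gene of the list rose. Lhx2, a progenitor factor as well, fell to 195 ± 15.5 CPM at E17, against 638 ± 55 CPM at E13 (edgeR adjusted p = 5.35e-10). Epha3, an ephrin receptor, fell to 61 ± 10.5 CPM at P1, against 165 ± 18.8 CPM at E17 (edgeR adjusted p = 0.00868).

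The 10 deep-layer regulators were counted in the same libraries. At E13 against E11, 6 were called higher and 2 lower (median log2 fold change 0.61), at E17 against E13 9 higher and 1 lower (0.60), and at P1 against E17 1 higher and 5 lower (-0.31). The background over all tested genes in these steps was 40.1%, 73.8% and 49.9% called, with medians of 0.0, -0.04 and -0.0. Bcl11b (Ctip2), the subcerebral neuron factor, rose by 1.61 ± 0.16 at E13 against E11 and by 0.43 ± 0.15 at E17 against E13 (edgeR adjusted p = 1.65e-05 and 0.0245), with overlapping libraries in the second of these. At P1 against E17 the larger falls were of Sox5 (-0.95 ± 0.17, edgeR adjusted p = 0.000775) and Tbr1, the layer VI factor (-0.64 ± 0.13, edgeR adjusted p = 0.00131). Ldb2 was the largest rise at E17 against E13, with 3.22 ± 0.08 (edgeR adjusted p = 3.66e-12). Relative to the mean log2 CPM of these 10 genes, 5 of the 7 upper-layer factors stood higher at P1 than at E11. Mef2c averaged 4.28 at P1 and -1.23 at E11, Pou3f1 0.37 at P1 and -4.06 at E11, Rorb -1.40 at P1 and -4.29 at E11, Cux2 1.31 at P1 and -0.17 at E11, and Pou3f2 0.40 at P1 and -0.46 at E11. Pou3f3 and Cux1 stood lower, Pou3f3 with 2.32 at P1 and 2.86 at E11 and Cux1 with 1.25 at P1 and 2.72 at E11. The difference between the 2 lists was not tested.

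**Figure D4:**
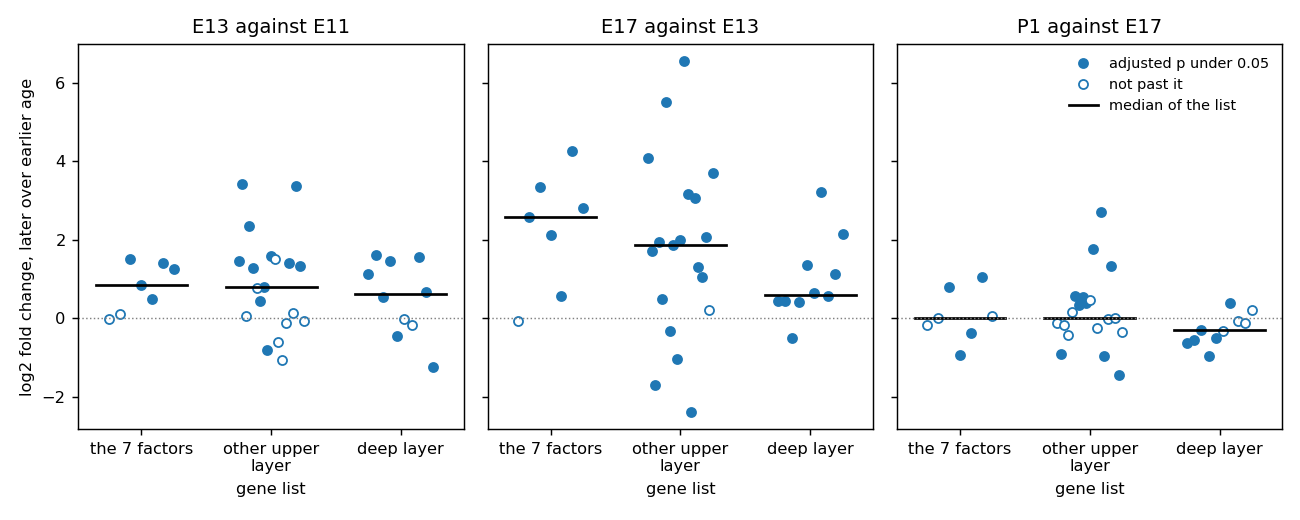
Fitted log2 fold change (later over earlier age) of each gene of 3 lists, the 7 factors, the 19 other upper-layer genes and the 10 deep-layer regulators, in the 3 steps. Filled points have an adjusted p under 0.05 and black lines mark the list medians, which at E17 against E13 are 2.58, 1.87 and 0.60.

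The genes most alike to each member over the 12 libraries were found by Pearson's r of log2 CPM, among genes with a mean of at least 5 CPM. Other members, sex-linked genes and transcripts with only a provisional symbol were passed over in naming them, but were kept in the percentages below. These correlations span 4 ages and are descriptions without a test. For Cux2 they were the sodium channel gene Scn3a, with r = 0.998, and Camk1g and Jakmip2, with 0.997 each. Scn3a averaged 23.1, 24.2, 166 and 155 CPM over the 4 ages, the same plateau course as Cux2. Mef2c was most alike to Aatk, Fam171a2 and Lrrn2, and Pou3f1 to Tmem147os, Fbxo41 and Il17d, all with r = 0.999. For Rorb the nearest were the neurexin gene Nrxn3 (0.994), Brinp2 (0.993) and Tbc1d30 (0.992). Values of r above 0.9 are common where many genes climb with age. They were found for 28.2% of the genes compared with Mef2c, 27.8% with Pou3f1, 26.1% with Cux2 and 25.8% with Rorb. Shares at the higher r of the genes named were not counted. For the genes that were highest at E17, 13.8% had r above 0.9 with Pou3f2, led by the axon guidance receptor Robo1 (0.989), and 6.95% with Pou3f3, led by Amer2 (0.985), Spag9 (0.985) and Sox4 (0.983). Robo1 averaged 50.9, 93.1, 390 and 239 CPM, and Sox4, a factor of young neurons, 320, 665, 1230 and 710 CPM. Cux1 had 1 gene above 0.9, Ebf1 (0.912). Among the 7 themselves r was 0.82 to 1.0 for each pair without Cux1, and -0.31 to -0.63 for each pair with it.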

How the data were processed

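RNA counts per gene were deposited for 12 cortex libraries, 3 per age, as whole-number counts without normalization. Per the labels' protocols, poly(A)+ RNA from 1 µg of total RNA was made into TruSeq Stranded mRNA libraries and read on a NextSeq as single reads of 75 bp. The submitters' processing notes name STAR 2.5.2b, HTSeq 0.5.3, DESeq2 1.8.1, bcl2fastq 2.18 and SAMtools, without their roles. Build, annotation and strand setting were not given in the sources used here. No library was a copy of another of its age (chi-squared of their counts 10.23 to 29.81 per degree of freedom).

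Here, in R 4.3.3 with edgeR 4.0.16, filterByExpr (minimum count 10) kept 17847 genes and removed 32753, TMM factors were 0.92 to 1.09, and all 12 libraries entered 1 robust quasi-likelihood fit with age as the factor (common biological coefficient of variation 0.106). Tests are two-sided, Benjamini-Hochberg adjusted over the whole table, with a threshold of 0.05. Log2 CPM used a prior count of 2. The pipeline was tested on simulated data. Exon lengths are from GENCODE vM21 and promoter letters from RefSeq GRCm38.p6. The labels do not say that library letters pair animals, so letters were not taken to pair them. Deviations from the age mean correlated from -0.343 to 0.33 over 18 same-letter pairs of libraries. Between different letters they correlated from -0.342 to 0.315. Alternatives included other scalings and filters, DESeq2 1.42.0, limma 3.58.1 voom, a replicate block and each library left out. Genes named outside the 7 are their paralogs and neighbours, the 3 most alike genes, and per list and comparison up to 2 leading changes each way among genes of 1 CPM or more. Results of some genes are not reported here. The members and lists were chosen with earlier results of these data known.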

Additional observations from a re-analysis of the deposited data

How the results depend on the processing

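The 35 member results, 5 contrasts for each of 7 genes, were recomputed under up to 22 alternatives. Of the 28 called, 26 kept sign and call in every alternative and none reversed. The 2 exceptions, Pou3f2 at E13 against E11 and Cux1 at P1 against E11, lost the call without E13 B and without P1 B. Of the 7 uncalled, 4 were called in some alternative and 5 changed sign around values near 0. Beyond those in the report, Cux1 in the test of the steps was called without E17 B (-0.32, edgeR adjusted p = 0.0381). Cux2 at P1 against E17 had a log2 fold change of 0.0211 with RLE factors, 0.0288 with upper-quartile factors, 0.00746 without a filter, 0.0162 with a filter at 1 CPM in 3 libraries, 0.0211 with DESeq2, 0.00107 with limma-voom and 0.048 with E11 C, E13 C and E17 A left out together, and -0.032 to 0.069 with single libraries left out. For Cux1 the difference between the steps was 0.0159 with upper-quartile factors and 0.0784 with library size alone, and -0.318 to 0.0353 with single libraries left out. Leaving out single libraries gave -0.0827 to 0.00552 for Cux1 at E13 against E11, -0.127 to 0.0498 for Cux1 at E17 against E13 and -0.12 to 0.235 for Rorb at P1 against E17. The cause was not tested. Over all alternatives the number of the 7 genes called was 4 to 6 at E13 against E11, 6 to 7 at E17 against E13, 4 to 5 at P1 against E17 and 6 to 7 at P1 against E11. A replicate block by library letter, whose letters are not said to pair animals, left these at 5, 6, 4 and 7, and raised the test across ages to 7, Cux1 included, as did upper-quartile factors, library size alone, and leaving out E17 B or E17 C. Pou3f1 and Rorb at E11 rest on under 100 counts per library, and 3 animals per age limit the precision of every value.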
